A study of Mus musculus with 2 samples.

Results

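Nodal and activin signalling was followed through 9 genes, taken by symbol from the deposited tables: Nodal, Lefty1, Lefty2, Tdgf1, Acvr1b, Acvr2b, Smad2, Smad3 and Foxh1. All 9 were found, each as 1 row in both tables, among 23320 gene symbols that the tables share. The study compared PGCs that received a control vector with PGCs that received Klf9 (Klf9-OE). Both were delivered by lentivirus at an MOI of 5, the coding region of Klf9 in a CSII-EF vector, and both cultures lasted 1 day. The PGCs were sorted from the genital ridges of male and female E13.5 mouse embryos with the Oct4-deltaPE-GFP transgene, a germ cell reporter that both groups carried. Each group was 1 library, so no difference below has a replicate check. The labels state that the medium contained bFGF and the paper that it lacked bFGF, the same for both groups. Expression is given as RPKM, reads scaled to transcript length and to the size of the library, with the 95% interval that Cufflinks calculates for each gene. The interval stands in parentheses after a value and covers the error of estimation within a library and not the difference between cultures.

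Nodal is a secreted ligand of the TGF-beta family. It binds a type II receptor such as Acvr2b and the type I receptor Acvr1b together with the coreceptor Tdgf1, also known as Cripto, whereas activins use the same receptors without Tdgf1. The receptors phosphorylate Smad2 and Smad3, which join Smad4 and enter the nucleus, where Foxh1 is one of the factors that bring them to DNA. Nodal, Lefty1 and Lefty2 are themselves targets of the pathway, and the Lefty proteins block Nodal, so that the pathway feeds back on itself. In the fetal gonad, Nodal signalling is known for a transient activity in male germ cells around the time of sex determination.

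The ligand, both Lefty inhibitors, the coreceptor and Smad3 had lower levels after Klf9 overexpression, and for these 5 genes the intervals were apart. Nodal and Lefty1 were lower by slightly more than 2-fold, Lefty2 by 1.70-fold, Smad3 by 1.49-fold and Tdgf1 by 1.19-fold. Smad2 and the type I receptor Acvr1b had overlapping intervals. Foxh1 was listed at 0 in control PGCs and Acvr2b had an interval in Klf9-OE PGCs too wide to place it, and both coincided with differences in how the loci were assembled, described with each gene. Among all genes, intervals were apart with the lower value in Klf9-OE for 14.4% of 18626 genes with 1 row in each table, and for 20.2% of those that reached an RPKM of 1 in either library, as all 9 members did. Nodal reached an RPKM of 1 only in control and Foxh1 only in Klf9-OE, each in the library with its higher value. The higher value was in Klf9-OE, as for the values listed for Foxh1, for 11.2% and 14.8%. A value at least 2-fold lower in Klf9-OE was found for 9.44% of 18737 genes, and for 3.79% at an RPKM of 1 or more. Values at least 2-fold higher made up 9.83% and 3.93%. Since the libraries are bulk RNA, fewer cells of a type and less RNA per cell cannot be told apart.

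**Figure D1:**
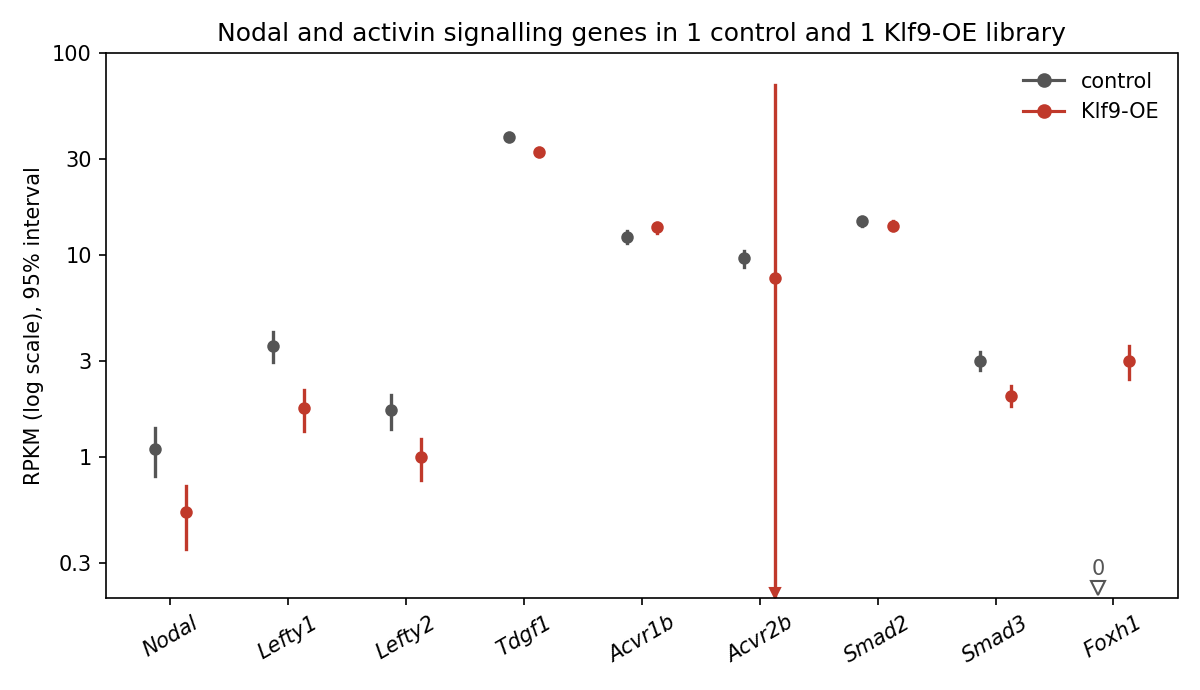
RPKM of the 9 genes on a log scale in the control library (grey) and the Klf9-OE library (red), with points for the value and lines for the 95% Cufflinks interval. The lines of Nodal, Lefty1, Lefty2, Tdgf1 and Smad3 do not overlap between the libraries, the open triangle marks Foxh1 listed at 0 in control, and the Klf9-OE line of Acvr2b runs from 0 to 69.4.

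Nodal, the ligand (chromosome 10, 61417972 to 61425337 of mm10), was at 1.10 RPKM in the control library (0.803 to 1.39) and at 0.535 in the Klf9-OE library (0.350 to 0.721). The ratio was a 2.05-fold lower level in Klf9-OE, with an interval of the ratio from 1.32 to 3.17. Nodal had the lowest level of the members above 0 in both libraries, above that of 36.5% of all genes in control PGCs and of 29.1% in Klf9-OE PGCs. The width of the intervals corresponds to 56.1 reads in control and 33.4 reads in Klf9-OE, fewer than for any other member above 0 whose interval was narrow enough to give a number. None of the 51-mers of its transcript, the length of the reads, occurred in a transcript of another gene.

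Lefty1, an inhibitor of Nodal (chromosome 1, 180935039 to 180938401), was at 3.55 RPKM in the control library (2.95 to 4.16) and at 1.74 in the Klf9-OE library (1.35 to 2.14), 2.04-fold lower (1.53 to 2.71). Lefty2, its neighbour on the same strand (180893119 to 180899102), was at 1.71 RPKM in the control library (1.37 to 2.04) and at 1.00 in the Klf9-OE library (0.771 to 1.23), 1.70-fold lower (1.26 to 2.30). The genes are close copies, with 91.8% identical bases over 1104 aligned coding positions. Of the 51-mers of the transcripts, 17.5% of those of Lefty1 and 11.3% of those of Lefty2 occurred in both genes, so reads from these stretches could be placed at either gene and the separate levels are uncertain to that extent.

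Tdgf1, the coreceptor (chromosome 9, 110939608 to 110946158), had by far the highest level, with an RPKM of 38.5 in control PGCs (36.7 to 40.3) and 32.4 in Klf9-OE PGCs (30.9 to 33.9). It was 1.19-fold lower in Klf9-OE (1.11 to 1.27), with interval widths that correspond to 1827 reads in control and 1877 in Klf9-OE (938 if entered in pairs). Of its 51-mers, 12.4% also occurred in the transcript of the pseudogene Tdgf1-ps1. The log2 ratios of the members between the libraries were compared in 21 pairs. That of Nodal minus that of Tdgf1 was -0.78 (-1.42 to -0.15), which reached 0.03 with wider intervals for Klf9-OE, and that of Lefty1 minus that of Tdgf1 was -0.78 (-1.20 to -0.36). Tdgf1 stood at 35.2 times the level of Nodal in control PGCs (26.8 to 46.1) and at 60.6 times in Klf9-OE PGCs (42.7 to 85.9). The ratios of Nodal, Lefty1 and Lefty2 did not differ from one another beyond their intervals.

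Acvr1b, the type I receptor also called ALK4 (chromosome 15, 101174093 to 101213613 in the control table), was at 12.3 RPKM in the control library (11.4 to 13.1) and at 13.7 in the Klf9-OE library (12.9 to 14.5). The intervals overlapped, although the log2 ratio of 0.16 had an interval from 0.03 to 0.29. Acvr2b, a type II receptor for both Nodal and activin, was at 9.63 RPKM in the control library (8.74 to 10.5) and at 7.73 in the Klf9-OE library, where the interval ran from 0 to 69.4. The Acvr2b locus extended from 119402403 to 119442093 of chromosome 9 in the control table and from 119402455 to 119434997 in the Klf9-OE table. The remaining stretch was listed in the Klf9-OE table as 3 loci without a gene name, with RPKM values of 5.34, 5.54 and 5.53, and it lies within the RefSeq bounds of Acvr2b (119401583 to 119442148). The values of the libraries therefore cover different parts of the gene and give no usable ratio.

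Smad2 and Smad3 are phosphorylated by the same receptors. Smad2 (chromosome 18, 76241701 to 76311747) was at 14.7 RPKM in the control library (13.9 to 15.5) and at 14.0 in the Klf9-OE library (13.2 to 14.7), with overlapping intervals and a log2 ratio of -0.07 (-0.18 to 0.04). Smad3 (chromosome 9, 63646767 to 63757994) was at 2.995 RPKM in the control library (2.70 to 3.29) and at 2.01 in the Klf9-OE library (1.79 to 2.23), 1.49-fold lower (1.28 to 1.73). Smad2 was thus at 4.90 times the level of Smad3 in control PGCs (4.38 to 5.49) and at 6.95 times in Klf9-OE PGCs (6.15 to 7.86). The log2 ratio of Smad3 minus that of Smad2 was -0.50 (-0.75 to -0.26).

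**Figure D2:**
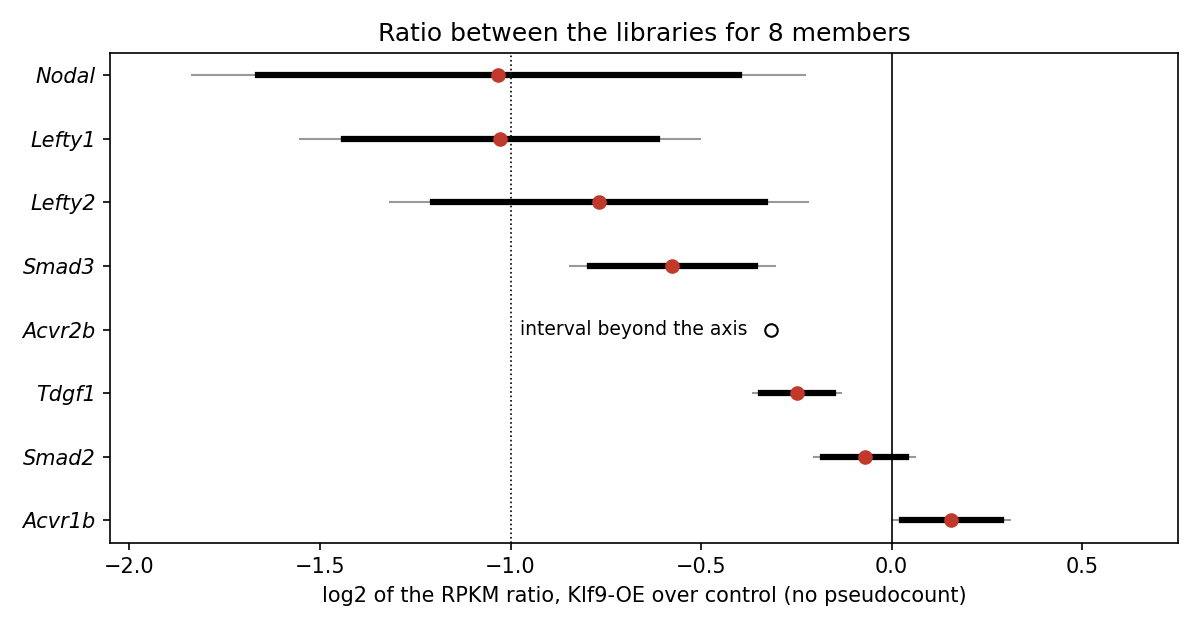
Log2 of the ratio of RPKM, Klf9-OE over control, for the 8 members above 0 in both libraries, with black lines for the interval from the Cufflinks bounds and thin grey lines for the interval with the Klf9-OE bounds widened by the square root of 2. The lines of Nodal, Lefty1, Lefty2, Smad3 and Tdgf1 lie below 0, that of Smad2 crosses 0, the interval of Acvr2b exceeds the axis, and the dotted line marks a 2-fold lower level.

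Foxh1, which binds DNA together with the Smads (chromosome 15, 76668224 to 76669948), was listed at 0 in control PGCs, with bounds of 0, and had an RPKM of 2.97 in Klf9-OE PGCs (2.42 to 3.52). The width of that interval corresponds to 116.0 reads, or to 58.0 if reads were entered in pairs. In the control table, the locus of the neighbouring gene Kifc2 ended at 76668268 and overlapped Foxh1 by 45 bases, all but the first of them in the annotated 3′ untranslated region of Foxh1 (76668225 to 76668309). In the Klf9-OE table, Kifc2 ended at 76668196, leaving a gap of 27 bases. The RefSeq bounds of Foxh1 are wider (76667829 to 76671614) and include this end, so by RefSeq the genes overlap. Kifc2 itself was at 9.22 RPKM in the control library (8.44 to 10.01) and at 7.47 in the Klf9-OE library (6.83 to 8.11). The genes lie on opposite strands, and the library kit does not mark strand. Across the control table, 165 loci were listed at 0 while their symbol had an RPKM of at least 1 in Klf9-OE, and 80 of them (48.5%) overlapped another named locus above 0, against 12.3% of 11675 loci with an RPKM of at least 1 in both libraries. The groups of loci were not matched for level or length, and a link between overlap and a listed 0 was not tested. Whether Foxh1 was expressed in control PGCs cannot be read from the listed 0, and no fold is given.

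**Figure D3:**
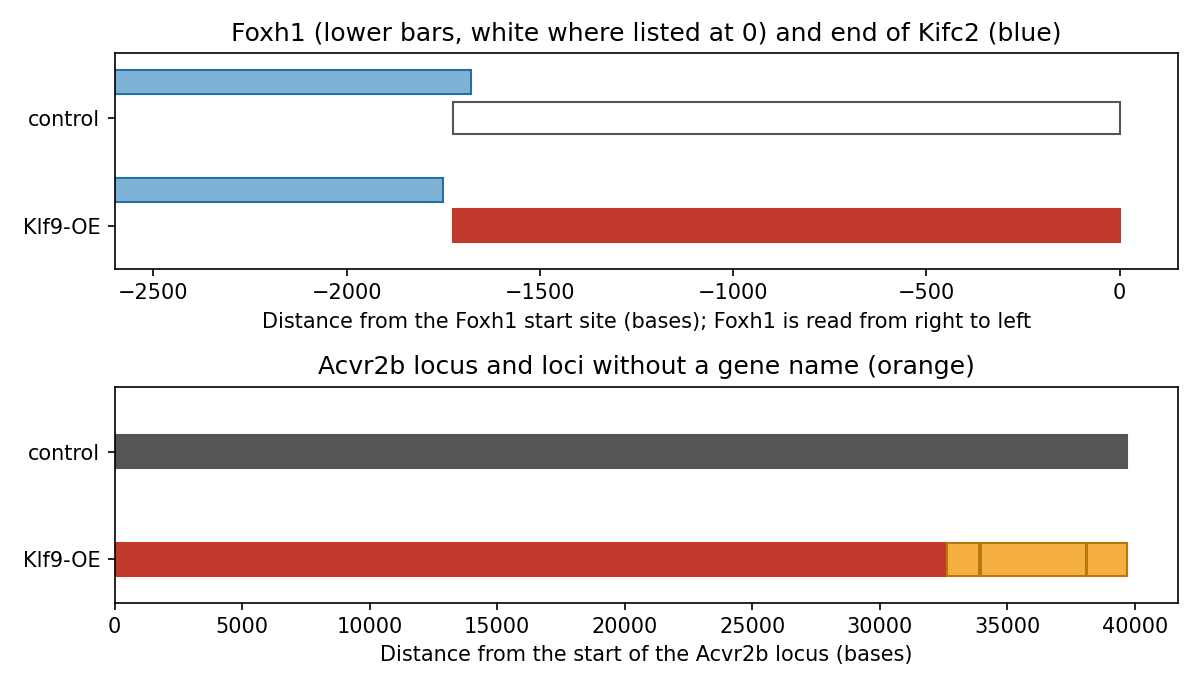
Extent of the loci in the control and Klf9-OE tables, in bases from the Foxh1 start site (top, with the end of Kifc2 in blue above each Foxh1 bar) and from the start of the Acvr2b locus (bottom). The Kifc2 bar reaches over the end of Foxh1 only in control, where the Foxh1 bar is white because it is listed at 0, and the last stretch of Acvr2b is cut into 3 loci without a gene name (orange) only in Klf9-OE.

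Within a library, levels per length can be ordered. In control PGCs the order was Tdgf1, Smad2, Acvr1b, Acvr2b, Lefty1, Smad3, Lefty2 and Nodal, and only Lefty1 and Smad3, and Lefty2 and Nodal, were neighbours with overlapping intervals. In Klf9-OE PGCs the order was Tdgf1, Smad2, Acvr1b, Acvr2b, Foxh1, Smad3, Lefty1, Lefty2 and Nodal. There the intervals of Smad2 and Acvr1b and those of Smad3 and Lefty1 overlapped, and that of Acvr2b overlapped both of its neighbours. Lefty1 was at 3.24 times the level of Nodal in control PGCs (2.36 to 4.45) and at 3.26 times in Klf9-OE PGCs (2.15 to 4.93). Lefty1 was at 2.08 times the level of Lefty2 in control PGCs (1.61 to 2.70) and at 1.74 times in Klf9-OE PGCs (1.26 to 2.41), so these proportions differed by less than their intervals.

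The 2-fold calls of Nodal and Lefty1 lay just past the threshold, and Lefty2, at 1.70-fold, was the nearest member below it. With 0.1 added to each RPKM, with 1 added, or with both libraries scaled to the same sum, neither Nodal nor Lefty1 was 2-fold lower. The intervals of Nodal, Lefty1, Lefty2, Tdgf1 and Smad3 stayed apart under both scalings tried, to the same upper quartile and to the same sum. When the Klf9-OE intervals were widened by the square root of 2, Nodal was at most 0.798 in Klf9-OE against at least 0.803 in control, so it remained apart by a narrow margin. With the wider intervals and the same sum together, Lefty1, Tdgf1 and Smad3 stayed apart and the intervals of Nodal and Lefty2 overlapped. The median of log2(RPKM + 0.1) in Klf9-OE minus control was -0.31 over the 9 genes, -0.43 without Foxh1 and -0.55 without Foxh1 and Acvr2b, neither of which has a usable ratio, beside -0.02 over 18737 genes.

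The sequence before the start of transcription was available here for 5 of the 9 genes, Lefty1, Lefty2, Smad2 and Foxh1 not among them, as the 250 bases given by RefSeq on GRCm38.p6. Klf9 is known as a factor that binds GC-rich boxes, so the letters GGGCGG, the core of a GC box, were searched on both strands (CCGCCC is the reverse). Of 32851 such windows of the genome, 32.7% held at least 1 match. Nodal held none, Tdgf1 held 1, Smad3 held 2, Acvr2b held 3 and Acvr1b held 4, of which some overlap. The windows of Smad3, Acvr2b and Acvr1b were 69.2%, 72.8% and 78.8% G or C, and those of Nodal and Tdgf1 53.2% and 42%. The median of all windows was 52.4%, and the share of 32.7% was not matched for G and C. The windows of Nodal, Tdgf1 and Smad3, the members lower in Klf9-OE that had a window, are shown with matches in capitals, since these are the upstream sequences of the genes on which the comparison turns. They cover chr10:61417722-61417971 on the forward strand for Nodal, and chr9:110946159-110946408 and chr9:63757995-63758244 on the reverse strand for Tdgf1 and Smad3. A match is no evidence of binding, and binding of Klf9 was not measured.
Nodal: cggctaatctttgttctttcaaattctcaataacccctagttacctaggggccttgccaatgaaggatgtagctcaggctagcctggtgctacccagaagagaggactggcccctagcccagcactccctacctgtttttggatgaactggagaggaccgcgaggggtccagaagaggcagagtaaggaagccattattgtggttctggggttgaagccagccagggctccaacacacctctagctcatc
Tdgf1: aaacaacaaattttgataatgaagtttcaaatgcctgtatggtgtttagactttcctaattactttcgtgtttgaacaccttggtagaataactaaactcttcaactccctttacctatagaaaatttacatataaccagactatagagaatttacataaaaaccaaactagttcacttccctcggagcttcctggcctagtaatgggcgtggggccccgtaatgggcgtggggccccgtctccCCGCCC
Smad3: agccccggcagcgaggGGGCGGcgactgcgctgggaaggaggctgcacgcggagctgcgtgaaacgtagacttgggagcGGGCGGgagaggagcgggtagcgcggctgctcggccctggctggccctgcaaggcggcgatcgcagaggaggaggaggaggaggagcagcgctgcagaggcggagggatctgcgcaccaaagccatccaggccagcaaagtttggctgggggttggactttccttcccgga
The match of Tdgf1 begins at position -6 from the start of transcription, and those of Smad3 begin at -234 and -171. The letters CAGAC, which hold the core of a Smad-binding element, were searched on both strands and were found in 42.2% of all windows and, among these 5 genes, in those of Tdgf1 and Acvr2b. The box that several Klf factors bind, CACCC, was found on either strand in 52% of all windows and, among these 5 genes, in that of Acvr1b.

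A list of 55 other genes of the pathway was examined, of which 53 symbols were in both tables and 52 were above 0 in at least 1 library. Intervals were apart for 13 of them, 7 lower, including Acvr1c at 0, and 6 higher in Klf9-OE, beside 14.4% lower and 11.2% higher among all genes. With the Klf9-OE intervals widened by the square root of 2, 10 were apart, 5 lower and 5 higher. The 5 lower included Acvr1c, whose Klf9-OE bounds of 0 change with neither widening nor scaling. Scaled to the same upper quartile, 11 were apart (5 lower), and to the same sum, 12 (5 lower). At least 2-fold lower were 5, among them Gdf11, Fstl3, Acvr1c and Cfc1, and at least 2-fold higher was Eomes, beside 9.44% and 9.83% among all genes. Gdf11, a ligand that acts through Smad2 and Smad3, was at 0.972 in control and 0.370 in Klf9-OE, and Eomes, a T-box factor that works with Nodal signals, was at 0.364 and 0.795, with intervals apart for both. Fstl3, which binds activin, was at 0.692 and 0.340 with overlapping intervals. The median log2 difference of the 52 genes was -0.07.

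**Figure D4:**
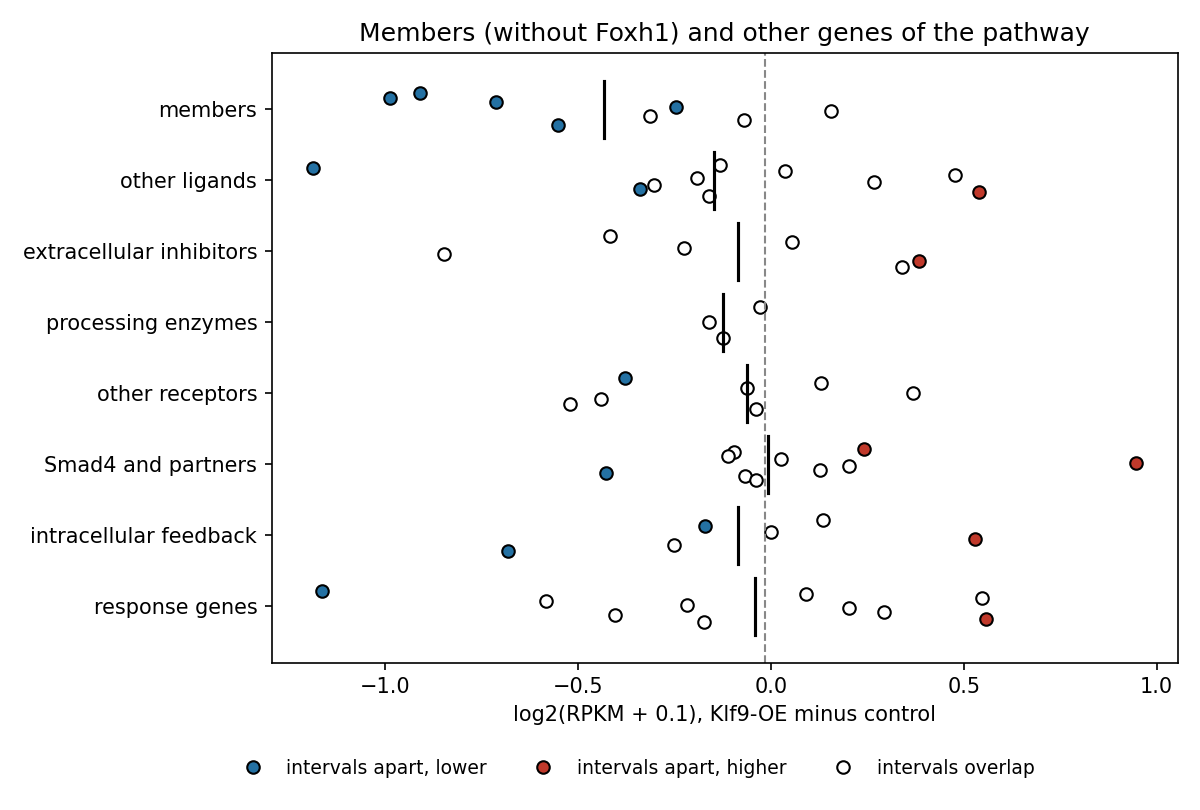
Log2(RPKM + 0.1) in Klf9-OE minus control for the members other than Foxh1 and for 52 other genes of the pathway by group, with filled points where intervals were apart, black bars for group medians and a dashed line for the median of all genes. The median of the 8 members shown, Acvr2b included, is at -0.43, and that of each other group lies between -0.15 and -0.01.

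Among the other ligands, Gdf3, a Nodal-related ligand of pluripotent cells, was at 5.10 RPKM in the control library and at 4.64 in the Klf9-OE library, with overlapping intervals. The activin subunit genes Inhba and Inhbb had RPKM values of 1.43 and 2.62 in control PGCs and 2.02 and 2.28 in Klf9-OE PGCs, and the intervals of each overlapped. Tgfb1 was lower in Klf9-OE (5.61 in control and 4.41 in Klf9-OE, intervals apart), and Tgfb2 was 1.52-fold higher (0.667 and 1.01, intervals apart). For both, the intervals overlapped when those of Klf9-OE were widened by the square root of 2. Gdf1 was listed only under a joint name with Cers1 and has no value of its own. The convertases Furin and Pcsk6, which can cleave the Nodal precursor, had RPKM values of 8.98 and 2.82 in control PGCs and 8.81 and 2.51 in Klf9-OE PGCs, with overlapping intervals.

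Of the further inhibitors, Fst, which binds activin, was at 2.26 RPKM in the control library and at 1.92 in the Klf9-OE library, and Cer1, which binds Nodal, had 0.148 and 0.0860, with overlapping intervals for both. Acvr2a, the other type II receptor for activin and Nodal, was at 5.14 RPKM in the control library and at 5.64 in the Klf9-OE library, and Tgfbr1, the type I receptor for TGF-beta, had 16.9 and 16.1. The intervals overlapped for both receptors. Tgfbr2, the type II receptor for TGF-beta, had an RPKM of 0.709 and 0.945, also with overlapping intervals. Acvr1c, which encodes ALK7, and Cfc1, a relative of Tdgf1, had RPKM values of 0.0301 and 0.0435 in control PGCs and were listed at 0 in Klf9-OE PGCs.

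Smad4, the partner shared by all receptor-activated Smads, was higher in Klf9-OE PGCs (19.5 in control, 18.4 to 20.6, and 23.1 in Klf9-OE, 21.9 to 24.3). It was at 6.51 times the level of Smad3 in control PGCs (5.80 to 7.31) and at 11.5 times in Klf9-OE PGCs (10.2 to 13.0). Of the corepressors, Ski, Skil and Tgif1 had overlapping intervals, as did Drap1, which restrains Foxh1, and Tgif2 was lower in Klf9-OE (43.8 in control and 32.5 in Klf9-OE, intervals apart). Among the 6 intracellular feedback genes measured, the ubiquitin ligase genes Nedd4l (6.97 and 4.31) and Smurf1 (14.1 and 12.6) were lower, and Ppm1a, a phosphatase gene, was higher (20.5 and 29.7), each with intervals apart. With the Klf9-OE intervals widened by the square root of 2, those of Smurf1 overlapped. The other 3 overlapped, among them the feedback inhibitor Smad7, which was at 4.27 RPKM in the control library and at 4.69 in the Klf9-OE library. Another was Ldlrad4, whose Klf9-OE interval, from 0 to 26.4, was too wide to give a usable ratio.

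Among the response genes, Otx2, Fgf8, Lhx1 and T had overlapping intervals, with log2 differences of -0.40 for Otx2, -0.58 for Fgf8, 0.29 for Lhx1 and 0.55 for T. Id1, which also responds to BMP, was higher (125 in control, 184 in Klf9-OE, intervals apart).

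Klf9 was at 2.27 RPKM in the control library and at 80.8 in the Klf9-OE library (35.6-fold higher). By quantitative PCR, the paper reports a far larger rise at the same MOI, in PGCs of an earlier embryonic day after a longer culture. Germ cell markers were abundant in both libraries and, of 10, 7 were lower and 2 higher in Klf9-OE with intervals apart, and their summed RPKM was 1448 in control and 1234 in Klf9-OE. Among all genes, intervals were apart for 14.4% with the lower value in Klf9-OE and for 11.2% with the higher value. At an RPKM of 1 or more in either library, these shares were 20.2% and 14.8%. Nanog, a pluripotency factor, was 1.85-fold lower, while the germ cell genes Ddx4 and Dazl were at 299.9 and 351 RPKM in control and at 292 and 378 in Klf9-OE, with Dazl among the 2 that were higher. Of 4 markers of male germ cells, 3 were lower with intervals apart (summed RPKM 195 and 126), and Nanos2, a regulator of male germ cell fate, was at 4.85 and 4.68 with overlapping intervals. Of 4 markers of female germ cells, 3 were lower with intervals apart (summed RPKM 702 and 667). Most of this sum was Sycp3, at 541 in control and 557 in Klf9-OE with overlapping intervals. The lower markers were Stra8 (1.51-fold), Rec8 (1.23-fold) and Msx1 (4.53-fold). The median log2 difference was -0.45 over the female markers and -0.40 over the male markers, so the sums do not show a difference between the sexes. Of 4 Y-linked genes, Eif2s3y was lower with intervals apart (59.0 in control and 49.3 in Klf9-OE). The intervals overlapped for Ddx3y (3.76 and 4.29), Uty (4.95 and 5.50) and Kdm5d (3.72 and 3.20), so the Y-linked genes had no common direction. Xist, expressed from the inactive X of females, was higher in Klf9-OE (0.829 and 2.05, intervals apart). Gonad somatic markers summed to 23.1 in control and 31.4 in Klf9-OE. Of 9 measured markers, 4 were higher (Amh, Wt1, Gata4 and Star) and 1 lower (Sox9) with intervals apart. Star was listed at 0 in control, with bounds of 0, and at 2.39 in Klf9-OE, which the Klf9-OE sum includes. As for Foxh1, expression of Star in control cannot be read from the listed 0. Of 4 endothelial markers, Cdh5 was higher and Tek lower with intervals apart (summed RPKM 3.13 and 5.99), and Emcn was listed at 0 in Klf9-OE. With the Klf9-OE intervals widened by the square root of 2, those of Dazl, Tek and the somatic marker Gata4 overlapped. Of 4 macrophage markers, Csf1r was higher with intervals apart (0.307 and 1.18, in a summed RPKM of 0.535 and 1.26). The other 3 were below 0.1 in both libraries and had lower values in Klf9-OE, with overlapping intervals. The part of these differences in the lower levels of Nodal, Lefty1, Lefty2, Tdgf1 and Smad3 was not tested.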

How the data were processed

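The data were 1 control and 1 Klf9-OE RNA-seq library of cultured E13.5 PGCs. Per the labels and the methods of the paper, the authors aligned reads of 51 bases (single-end) with TopHat2 and Bowtie on mm10, and Cufflinks gave the deposited FPKM of each locus with its 95% interval. For single-end reads FPKM equals RPKM. Their Cuffdiff results were not used, and versions are not given in the sources used here. The reads behind a value were derived from its interval, as (2 x RPKM / half-width) squared. Among genes with 1 to 9 such reads (within 0.06 of a whole number), the number was even for 36.2% in control and for 87.8% in Klf9-OE. Klf9-OE intervals may therefore be too narrow, and were also widened by the square root of 2.

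Values of the same symbol were summed, genes with a failed status were left out, and 2-fold differences were counted on plain ratios. Log2 differences were of RPKM + 0.1, a pseudocount that makes changes of low genes look smaller. Intervals of ratios were propagated from the Cufflinks bounds, taken as 2 SD. All members were described. Of the other pathway genes, those that act directly with a member and, at an RPKM of at least 1, response genes and genes past 2-fold with intervals apart were named. Gdf11, Fstl3, Eomes, Tgfb2, Tgif2, Nedd4l, Smurf1 and Ppm1a were named after their values were seen. Some genes and sequences are not reported here. With 1 ratio per gene, no likeness of patterns was measured. The members and lists were chosen with earlier results of these data known. Other pseudocounts, filters, scalings, folds and interval widths were tried, and the steps were tested on simulated data. Sequences came from GENCODE M21 and RefSeq GRCm38.p6, the build of mm10. Python 3.11.15, numpy 2.4.6, pandas 2.3.3 and matplotlib 3.10.9 were used.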

Additional observations from a re-analysis of the deposited data

How the results depend on the processing

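With 1 library per condition, no replicate could be left out. No paired analysis was possible because each condition had 1 library. Foxh1, with a listed 0 and no usable ratio, passes any such threshold and is counted here only as listed. With it, 3 of the 9 genes differed 2-fold and 1 did so with a pseudocount of 0.1 or 1, with the same sum, or at 4-fold. Without it, Nodal and Lefty1 remained in the first count and no gene in the others. The number with intervals apart was 6 (5 without Foxh1), and between 4 and 7 under the alternatives. With the same sum, Acvr1b was also apart, with the higher value in Klf9-OE. The median log2 difference kept its sign under each alternative and was -0.55 without Foxh1 and Acvr2b, an alternative added after the data were seen, as were those without Foxh1 alone and with wider intervals and the same sum together. For the 7 members with a usable ratio, 28 values were recomputed under other pseudocounts and scalings, of which 22 moved by less than their error of estimation, 6 moved by more and none reversed. Of the 52 other pathway genes, 6 differed 2-fold. This number was 2 with a pseudocount of 0.1, 0 with a pseudocount of 1, 1 at an RPKM of at least 1, 13 at 1.5-fold and 2 at 4-fold. Scaling to the same sum moved the median log2 difference of all genes from -0.02 to 0.04. Few reads limit Nodal most, with 16.7 in Klf9-OE if reads were entered in pairs.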

Other observations

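The control table held 6482 loci with no gene name and that of Klf9-OE held 15127. Within the spans of the 9 genes there were none in control and 7 in Klf9-OE, 3 in the last stretch of Acvr2b and 4 inside Acvr1b, between 101195089 and 101198229 of chromosome 15. The latter had RPKM values of 2.65, 7.82, 2.96 and 2.31, below the 13.7 of Acvr1b itself.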
